A study of Mus musculus with 24 samples.

Results

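The miR-148 and miR-152 family was described in serum extracellular vesicles (EVs) of mice through 4 mature miRNAs, mmu-miR-148a-3p, mmu-miR-148a-5p, mmu-miR-148b-3p and mmu-miR-152-3p, chosen by name out of 1966 mature miRNAs in the count table. Sequencing of small RNA gave 24 libraries, 6 from each of 4 groups named Control, S6h, S24h and S72h. All mice were wild type C57BL/6 aged 14 to 16 weeks, and surgery was a tibia fracture stabilised with a pin, with serum taken 6, 24 or 72 h later. Control mice, the set kept for the 6 h time point, received saline, whereas operated mice had isoflurane and buprenorphine at surgery, with daily buprenorphine in the S24h and S72h groups. Pentobarbital was given to the animals before blood was drawn. Control was thus matched to S6h by animal batch, and the other control set, kept for S24h and S72h, was not analysed here. Per its methods, the study kept 1 set after its own test found no difference between the 2, a comparison not repeated here. The methods also state that operated mice were assigned at random to the 6, 24 and 72 h time points. Whether the S24h and S72h mice shared the batch of S6h and Control is still not given in the sources used here. Time after surgery therefore cannot be told apart from batch, or from the daily buprenorphine, when S24h or S72h is compared with Control or with S6h. The effects of surgery and of its drugs cannot be told apart in any comparison with Control. EVs were collected from serum with a precipitation kit, a method that can carry other serum particles along. A serum EV miRNA can come from many cell types, and fewer EVs from a source and less of the miRNA in each EV cannot be told apart.

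miRNAs guide Argonaute proteins to messenger RNAs, mainly through pairing of the seed near their 5′ end, and members of a family with the same seed can act on overlapping targets. The miR-148 and miR-152 family is known for repressing the DNA methyltransferase Dnmt1, and miR-148a, which is abundant in liver, also acts on the cholesterol transporter Abca1. The 5p arm of the miR-148a hairpin is usually the less retained strand.

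The mature sequences, from RefSeq on GRCm38.p6, are shown 5′ to 3′ with the seed, bases 2 to 8, in capitals, because 3 members share it and the other does not. All 4 members were matched.
miR-148a-3p: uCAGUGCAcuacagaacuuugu
miR-148b-3p: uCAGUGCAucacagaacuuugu
miR-152-3p: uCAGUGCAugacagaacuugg
miR-148a-5p: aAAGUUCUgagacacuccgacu
Among 1679 mature mouse sequences searched, the seed of the 3p members occurred in these 3 alone. With positions counted from 1 at the 5′ end, miR-148b-3p differed from miR-148a-3p by C9U and U10C, and miR-152-3p differed from miR-148a-3p by C9U, U10G and U20G. Between miR-148b-3p and miR-152-3p the differences were C10G and U20G. With so few differences, the split of reads among the 3 depends on the mismatches that the alignment allowed, which was not tested. The seed of miR-148a-5p was shared by 1 other miRNA, miR-148b-5p, which is not a member.

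The 3 hairpins lie on different chromosomes of GRCm38. Mir148a is at chr6:51269812-51269910 on the minus strand and overlapped no other annotated gene, the nearest protein-coding gene being Nfe2l3 at a distance of 162760 bases. Mir152 is at chr11:96850393-96850465 on the plus strand, in an intron of Copz2, and Mir148b is at chr15:103285125-103285221 on the plus strand, in an intron of Copz1. Copz1 and Copz2 encode paralogous subunits of the COPI vesicle coat, and each is transcribed in the direction of its hairpin. The Mir148a hairpin is printed with both mature arms in capitals, 5p first, since the arms differed in the serum EV counts.
Mir148a: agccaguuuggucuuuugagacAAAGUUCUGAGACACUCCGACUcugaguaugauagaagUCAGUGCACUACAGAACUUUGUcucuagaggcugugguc

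Total counts per library ranged from 63956 to 471801, and levels are given as CPM, the count scaled to these totals. In the smallest library, Control replicate 2, a single count equalled 15.6 CPM and a count of 0 allowed up to 3 counts, or 46.9 CPM. Such floors, and the intervals given for shares, cover counting error only. A miRNA was tested when it reached 10 CPM in at least 12 libraries, which held for 252 miRNAs and for 3 of the 4 members. The exception was miR-148a-5p, with counts in 10 libraries and at least 10 CPM in 9.

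miR-148a-3p was the most abundant member in every group. In Control it ranged from 2579.9 to 6012 CPM with a median of 5586, and in S6h from 2698 to 4017 CPM with a median of 3426. In S24h it ranged from 682 to 3886 CPM with a median of 1153, and in S72h from 287 to 5602 CPM with a median of 3309. Of the S24h libraries, 4 lay below every Control library and the other 2, replicates 2 and 6, lay at 3767 and 3886 CPM, so that the groups overlapped. The overlap came through Control replicate 2, at 2579.9 CPM, which stood apart from the other Control libraries at 5229 CPM or more. In S72h, 3 libraries were below the lowest Control library and 3 were at 4402 CPM or more.

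The group means of miR-148a-3p were 5124 ± 1276 CPM in Control, 3428 ± 567 in S6h, 2989 ± 2163 in S72h and 1929 ± 1482 in S24h (SD, n = 6 each), in that order. S6h and S72h, and S72h and S24h, differed by less than the larger of their SDs. By edgeR's quasi-likelihood test, with 1 model of all groups and Benjamini-Hochberg adjustment over the 252 miRNAs, miR-148a-3p was lower in S24h than in Control with a log2 fold change of -1.62 (SE 0.49, adjusted p = 0.0239), and all 6 S24h libraries lay below the Control median. It was the 1 member of the 3 tested that passed a fold change of 1.5 and an adjusted p of 0.05, beside 30 of all 252 miRNAs (11.9%), of which 20 were lower (7.94%). This split moved with the scaling, to 17 lower of 40 called with upper quartile scaling, 19 of 37 with RLE factors and 20 of 37 with column totals. Over all tested miRNAs the median was -0.21 on the log2 scale, or 0.08 with upper quartile scaling, -0.06 with RLE and -0.03 with column totals, under which miR-148a-3p was at -1.38, -1.50 and -1.41. The call was lost without any 1 of the 4 low S24h libraries, with an adjusted p of 0.0559 without replicate 1, 0.0585 without replicate 3, 0.0508 without replicate 4 and 0.0575 without replicate 5.

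In the other comparisons no member passed. Against Control, the log2 fold change of miR-148a-3p was -0.54 in S6h (SE 0.47, adjusted p = 0.991) and -0.63 in S72h (SE 0.48, adjusted p = 0.521). In S6h all 6 libraries lay below the Control median, but edgeR called 0 of 252 miRNAs (0%), with 9 at an unadjusted p under 0.05 and 0 calls by DESeq2. In S72h against Control 9 miRNAs were called (3.57%). From S6h to S24h the log2 fold change of miR-148a-3p was -1.08 (SE 0.48, adjusted p = 0.117), where 51 miRNAs were called (20.2%), and in a model of these 2 groups alone the adjusted p was 0.0318. From S24h to S72h it was 0.99 (SE 0.48, adjusted p = 0.431), and 1 miRNA was called (0.397%). With column totals it was 0.63 from S24h to S72h. Without S72h replicate 4 it was 0.47 there and -1.03 in S72h against Control, the latter being -0.38 without S72h replicate 2. The difference between the S24h and S6h responses of miR-148a-3p was thus not past the threshold in the main model.

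**Figure D1:**
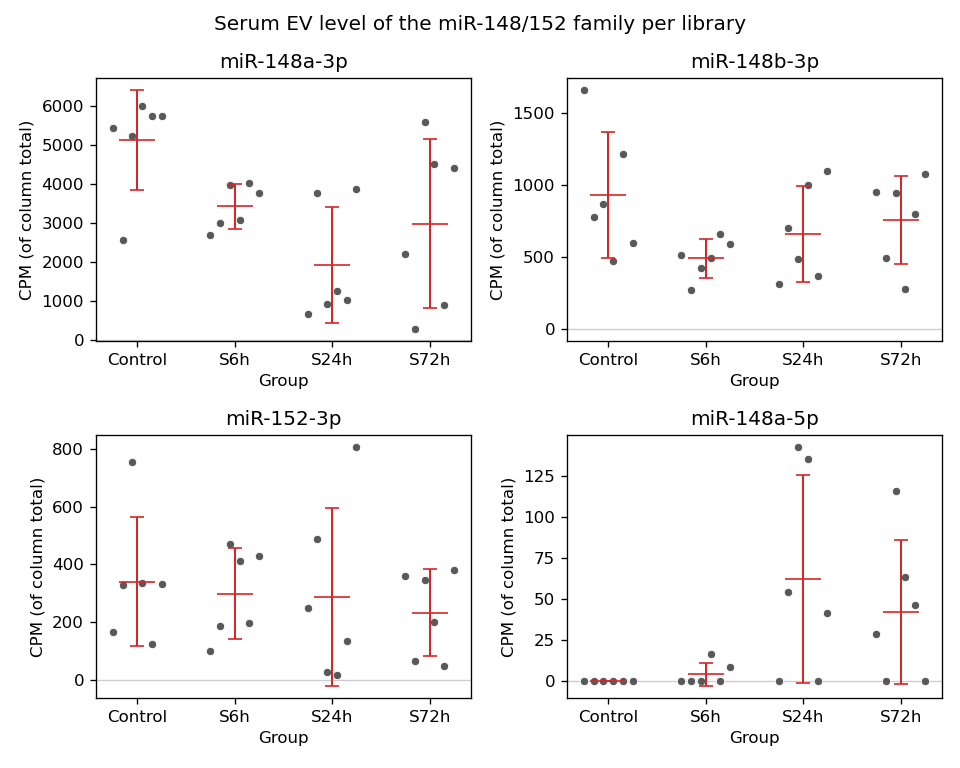
CPM of each member (vertical axes, linear) in the 24 libraries by group (horizontal axes), with 1 point per library and red bars for the mean and SD of 6 libraries. miR-148a-3p had 4 S24h libraries at 1275 CPM or less and 2 at 3767 and 3886, and miR-148a-5p was at 0 in all 6 Control libraries.

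miR-148b-3p, which carries the same seed, ranged from 477 to 1660.3 CPM in Control (median 826) and from 272 to 663 CPM in S6h (median 502). It ranged from 315 to 1098 CPM in S24h (median 595) and from 279.7 to 1076 CPM in S72h (median 874). The ranges overlapped in each comparison, although all 6 S6h libraries were below the Control median. The means were 935 ± 438 CPM in Control, 758 ± 308 in S72h, 662 ± 332 in S24h and 493 ± 136 in S6h, and neighbours in this order differed by less than the larger of their SDs. The log2 fold change against Control was -0.88 in S6h (SE 0.39, adjusted p = 0.991), -0.69 in S24h (SE 0.39, adjusted p = 0.234) and -0.30 in S72h (SE 0.39, adjusted p = 0.747). From S6h to S24h it was 0.20 (SE 0.39, adjusted p = 0.771), and from S24h to S72h 0.39 (SE 0.39, adjusted p = 0.886). Without Control replicate 1 the value was -0.56 in S6h and -0.36 in S24h against Control, and upper quartile scaling gave -0.38 in S24h against Control and 0.54 from S6h to S24h. From S24h to S72h it was 0.20 with column totals. The sign of the difference from S6h to S24h changed without S24h replicate 4 (-0.0039), and that of S72h against Control without Control replicate 1 (0.029).

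miR-152-3p, the lowest of the 3 with the shared seed, ranged from 123 to 754 CPM in Control (median 331) and from 98.4 to 472 CPM in S6h (median 303). In S24h it ranged from 15.003 to 806 CPM (median 192) and in S72h from 46.1 to 381 CPM (median 272). The S24h group held both the lowest library, with 1 count, and the highest, and spanned the whole Control range. The means were 340.3 ± 223 CPM in Control, 298 ± 157 in S6h, 286 ± 309 in S24h and 233 ± 151.6 in S72h, and neighbours in this order differed by less than either SD. Against Control the log2 fold change was -0.10 in S6h, -0.46 in S24h and -0.41 in S72h, with SEs of 0.70, 0.71 and 0.71 and adjusted p of 0.991, 0.734 and 0.819. It was -0.36 from S6h to S24h (SE 0.71, adjusted p = 0.771) and 0.05 from S24h to S72h (SE 0.71, adjusted p = 0.992). When 1 library was left out, the value moved between -0.88 (without S24h replicate 6) and -0.06 (without Control replicate 3) in S24h against Control. It moved between -0.65 (without S72h replicate 1) and -0.01 (without Control replicate 3) in S72h against Control, and between -0.86 and -0.11 (without S24h replicates 6 and 3) from S6h to S24h. Upper quartile scaling gave -0.12 in S24h against Control and -0.04 from S6h to S24h. The difference from S24h to S72h was negative under 7 of 10 settings that kept every library, down to -0.30 with column totals, and without any 1 of S24h replicates 3, 4 and 5 and S72h replicates 1, 4 and 6 (down to -0.20). In S6h against Control the difference turned positive without Control replicate 3 (0.30) or S6h replicate 1 (0.09), 2 (0.0062) or 5 (0.0021).

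Summed over the 3 members with the shared seed, the family reached 6399 ± 1343 CPM in Control, 4219 ± 729 in S6h, 2878 ± 1984 in S24h and 3980.3 ± 2369 in S72h (SD, n = 6). miR-148a-3p made up 69.9% to 88.1% of this sum in Control and 77.3% to 86.8% in S6h, compared with 54.7% to 76.0% in S24h. In S72h its share ran from 33.8% to 90.4%. The lowest share, in S72h replicate 2, rested on 65 family counts and had an exact 95% interval of 22.6% to 46.6%.

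The ratio of 2 members within a library does not depend on library scaling. The log2 ratio of miR-148a-3p to miR-148b-3p averaged 2.51 ± 0.80 in Control, 2.82 ± 0.41 in S6h, 1.34 ± 0.72 in S24h and 1.53 ± 1.70 in S72h. Of the S24h libraries, 5 lay below every S6h library and 4 below every Control library. The difference from S6h to S24h was -1.48 (exact two-sided permutation test, p = 0.00433, adjusted p = 0.0649 over 15 ratio tests), and between S24h and Control it was -1.18 (exact permutation test, p = 0.0260, adjusted p = 0.195). Neither passed after adjustment. The first passed with a pseudocount of 5 in place of 1 (adjusted p = 0.0325) and without S24h replicate 2 (adjusted p = 0.0325, difference -1.69). It did not pass with a pseudocount of 0.5 (adjusted p = 0.0649) or without any other library (adjusted p 0.0649 to 0.0974). With the replicate number as a block the difference was about as large (adjusted p = 0.234). A block allows exchanges only within replicate numbers, too few for 1 ratio alone to pass over 15 ratio tests, so that value decides nothing. The other 13 ratio tests had adjusted p of 0.705 or more by the exact permutation test. From S24h to S72h the differences in all 3 ratios were near 0, at 0.12 for miR-148a-3p to miR-152-3p, 0.19 for miR-148a-3p to miR-148b-3p and -0.07 for miR-148b-3p to miR-152-3p. Their signs changed when 1 library was left out, the first without S24h replicates 1 (-0.25) or 6 (-0.08) or S72h replicate 4 (-0.09), the second without S24h replicate 4 (-0.0093) or S72h replicates 3 (-0.013) or 4 (-0.30), and the third without S24h replicates 3 (0.32) or 4 (0.56) or S72h replicates 1 (0.028), 3 (0.022), 4 (0.21) or 6 (0.011). The third ratio against Control was 0.39 in S24h, 0.03 with a pseudocount of 5 and -0.24 without S24h replicate 4. In S72h it was 0.32, 0.13 with a pseudocount of 5 and -0.049 without S72h replicate 5. From S24h to S72h a pseudocount of 5 gave 0.32 for the first ratio and 0.10 for the third.

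**Figure D2:**
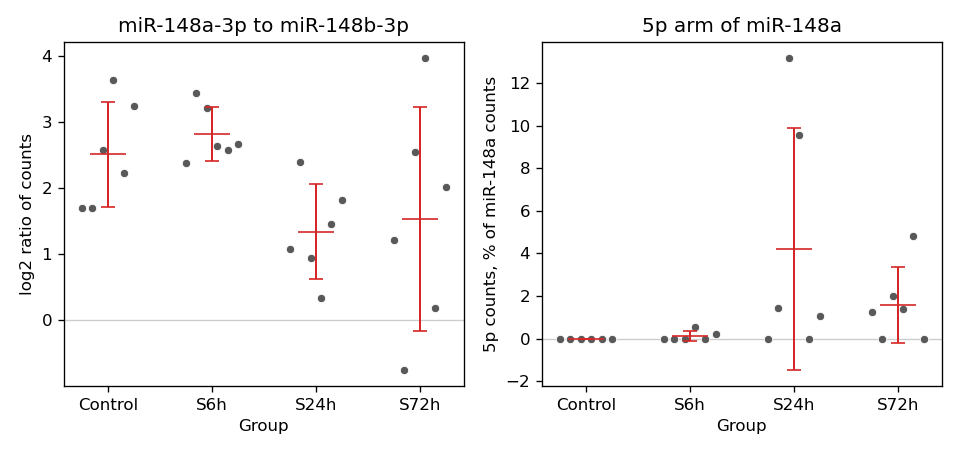
Left, log2 ratio of miR-148a-3p to miR-148b-3p counts, and right, miR-148a-5p as a percentage of all miR-148a counts, per library (points) by group, with red bars for the mean and SD of 6 libraries. The S24h ratios averaged 1.34 against 2.82 in S6h, and the 5p share reached 13.2% in S24h and was 0 in all Control libraries.

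The other arm of the hairpin, miR-148a-5p, was at 0 in all 6 Control libraries. It had counts in 2 of 6 S6h libraries (8 and 2 counts), in 4 of 6 S24h libraries (4 to 17 counts) and in 4 of 6 S72h libraries (3 to 9 counts). Levels ranged from 0 to 16.96 CPM in S6h, from 0 to 142 CPM in S24h (median 48.0) and from 0 to 115 CPM in S72h (median 37.4). The means were 62.2 ± 63.1 CPM in S24h, 42.2 ± 43.7 in S72h and 4.30 ± 7.14 in S6h, and each later group overlapped Control through libraries at 0. Set against a floor of 3 counts over the whole Control group, or 3.79 CPM, the pooled level was 17.2 times the floor in S24h and 9.68 times in S72h. These ratios do not cover the spread between mice and are not lower bounds. Of the 36 pooled S24h counts, 17 came from replicate 3. No such ratio is given for S6h, where 8 of 10 counts came from replicate 4.

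Without a filter on low counts, edgeR gave miR-148a-5p an adjusted p of 0.0466 in S24h against Control, where 38 of 667 miRNAs were called (5.70%). In the same fit it did not pass in S72h against Control (adjusted p = 0.155), in S6h against Control (adjusted p = 0.321), from S6h to S24h (adjusted p = 0.203) or from S24h to S72h. The call in S24h against Control was lost in 11 of 24 fits that left out 1 library, added after seeing the data. They were those without any 1 of the Control libraries, S6h replicates 4 and 6, S24h replicates 3 and 4 and S72h replicate 3, with adjusted p up to 0.106. It was also lost with the replicate number as a block (adjusted p = 0.166). Of all miR-148a counts, 0 of 4251 in Control came from the 5p arm (exact 95% interval up to 0.0867%). The share was 36 of 1198 in S24h (3.01%, exact 95% interval 2.11% to 4.14%) and 26 of 2177 in S72h (1.19%, 0.782% to 1.75%). In S6h it was 10 of 4329 (0.231%, 0.111% to 0.424%). Recalculated after the counts were seen, the pooled share was 1.78% without S24h replicate 3, 4.74% without S24h replicate 6 and 0.0697% without S6h replicate 4. The highest shares, 13.2% and 9.57%, were in S24h replicates 3 and 4. The other 2 libraries low in miR-148a-3p, replicates 1 and 5, had 0 of 52 and 0 of 76 counts from the 5p arm. Their exact 95% intervals reached up to 6.85% and 4.74%. An exact two-sided permutation test of the share per library, also added after the counts were seen, gave p = 0.0606 (adjusted p = 0.101 over 5 comparisons) in both S24h and S72h against Control. With all Control libraries at 0, this p is set by the 4 of 6 libraries with counts and does not depend on the size of the shares. The opposite arms of the other hairpins were also sparse, miR-148b-5p with 112 counts in 11 libraries, 26 of them in Control replicate 5, and miR-152-5p with 18 counts in 6 libraries.

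Across the 24 libraries, on log2 CPM with a pseudocount of 4, the miRNAs most like miR-148a-3p by Spearman's rho were miR-192-5p (0.77), miR-224-5p (0.70), miR-22-3p (0.69), miR-194-5p (0.67) and miR-382-3p (0.63). miR-192-5p and miR-194-5p are abundant in liver and intestine. After the group means were subtracted, rho was 0.71 for miR-192-5p, 0.42 for miR-224-5p, 0.56 for miR-22-3p, 0.27 for miR-194-5p and 0.78 for miR-382-3p. Of these 5, miR-224-5p (log2 fold change -3.92) and miR-22-3p (-1.69) were lower in S24h than in Control, with adjusted p of 0.0152 and 0.00322 by edgeR, beside 7.94% lower among all tested. The 5 were ranked over the same libraries, group differences included, so their fold changes are not separate evidence on S24h. The call of miR-224-5p was lost without Control replicate 5 (adjusted p = 0.0566). Its log2 fold change ranged from -8.58 to -3.42 when 1 library was left out and from -5.45 to -3.59 under settings that kept every library.

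The miRNAs most like miR-152-3p were miR-23a-3p (0.68), miR-434-5p (0.65), miR-342-3p (0.63), miR-99a-5p (0.57) and miR-532-3p (0.56), and none of these 5 was called in S24h against Control, beside 11.9% of all tested. Within the family, rho was 0.42 between miR-148a-3p and miR-152-3p, 0.29 between miR-148a-3p and miR-148b-3p and 0.10 between miR-152-3p and miR-148b-3p. With the group means subtracted, rho for these pairs was 0.59, 0.32 and 0.10, in the same order. These values are descriptions over 24 libraries that share group structure and depth.

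The group of miR-130 and miR-301 overlaps the family seed by 6 bases, shifted by 1 position, and 3 of its 6 listed members were tested. None of the 3 was called in any of the 5 comparisons, and the most abundant, miR-130a-3p, averaged 105 ± 109 CPM in Control and 130 ± 124 in S24h. Among 6 miRNAs known to act on DNA methyltransferases, all tested and 3 of them family members, 3 were lower in S24h than in Control and none higher, beside 20 of 252 lower (7.94%) among all tested, with a median log2 fold change of -1.08 beside -0.21 for all tested miRNAs. They were miR-148a-3p, miR-29a-3p (-1.31, SE 0.26, adjusted p = 0.000782) and miR-29c-3p (-3.71, SE 0.95, adjusted p = 0.00847). The first is the call given above and the others are of the miR-29 family, so the 3 calls are not separate evidence. This list was also chosen with earlier results of these data known. miR-29a-3p, the most abundant of the list, fell from 10980.5 ± 2664 CPM in Control to 4910.4 ± 665 in S24h. Of the list, miR-29a-3p and miR-29c-3p were also lower in S24h than in S6h, 2 of 6 beside 20.2% called among all tested, and miR-29b-3p was not called there (-0.54, adjusted p = 0.784).

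Of 13 regulators of cholesterol and lipoprotein genes, 11 were tested and 4 were called in S24h against Control, beside 30 of 252 (11.9%). miR-148a-3p and miR-27b-3p (-1.88, SE 0.34, adjusted p = 0.00032) were lower, and miR-185-5p (1.25, SE 0.39, adjusted p = 0.0291) and miR-26a-5p (1.02, SE 0.31, adjusted p = 0.0260) were higher. Of these 4, miR-148a-3p is the call already given above. The call of miR-185-5p was lost without Control replicates 2 or 5 or S24h replicates 3 or 4 (adjusted p up to 0.101), and that of miR-26a-5p without Control replicate 5 or S24h replicate 5 (up to 0.0744). The median of the list was -0.74. In S72h against Control miR-26a-5p alone of the 11 was called, as higher (adjusted p = 0.0462), beside 3.57% of all tested. The call held under 6 of 10 alternative settings and in 8 of 24 fits that left out 1 library, with adjusted p up to 0.109. From S6h to S24h miR-27a-3p, miR-27b-3p and miR-223-3p were lower and miR-185-5p was higher, 4 of 11 beside 20.2% of all tested. There miR-223-3p was called under 5 of 10 alternative settings and in 19 of 24 fits that left out 1 library, and miR-27a-3p under 8 settings and in all 24 fits.

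Marker lists of cells that release miRNAs into serum were read beside the lower miR-148a-3p. Of 4 liver markers 3 were tested, and none was called in any comparison. Their summed level ranged from 6004 to 171007 CPM in Control (median 77228) and from 8897 to 59797 CPM in S24h (median 19930), with medians of 15965 CPM in S6h and 12345 CPM in S72h, most of it miR-122-5p, the hepatocyte miRNA, and none of the 3 was at 0 in any library. The S72h sum ran from 5675 to 309361 CPM, and the median log2 fold change of the tested liver markers in S72h against Control was 0.11. Of 6 erythroid markers, all tested, 4 were lower in S24h than in Control, namely miR-451a (-1.42), miR-486a-5p (-1.26), miR-486b-5p (-1.22) and miR-16-5p (-1.20), with adjusted p of 0.0235, 0.0215, 0.0314 and 0.00696, beside 7.94% lower among all tested. The calls of miR-451a and both miR-486 forms were lost without S24h replicate 3, 5 or 6. That of miR-451a was also lost without Control replicate 5, that of miR-486a-5p without Control replicate 1, and that of miR-486b-5p without Control replicates 1 or 5 or S72h replicate 4, with adjusted p up to 0.131. With upper quartile scaling neither miR-486 form was called. miR-486a-5p and miR-486b-5p come from hairpins that overlap on opposite strands within Ank1, and their calls are not separate evidence. The erythroid sum ranged from 113096 to 198358 CPM in Control (median 144770) and from 35397 to 130370 CPM in S24h (median 67657), with medians of 126714 CPM in S6h and 68406 CPM in S72h and with miR-486b-5p the most abundant. With scaling factors computed without the erythroid list, miR-148a-3p in S24h against Control was at -1.65 (adjusted p = 0.0233).

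The stromal and smooth muscle list, 6 of 6 tested, had 3 lower and 1 higher in S24h than in Control, beside 7.94% lower and 11.9% called in all. miR-143-3p, its most abundant member (-3.25, adjusted p = 9.3e-05), miR-145a-3p (-2.17) and miR-199a-3p (-1.66) were lower, and miR-145a-5p (1.19) was higher. miR-145a-3p and miR-145a-5p are opposite arms of 1 hairpin, a neighbour of that of miR-143-3p, so these calls are not all separate evidence. The call of miR-145a-3p was lost without Control replicate 5 (adjusted p = 0.0666). The sum of the list had a median of 24787 CPM in Control, 41104 in S6h, 13196 in S24h and 12277 in S72h. In the epithelial list, miR-215-5p was lower in S24h (-3.98, adjusted p = 0.000782), 1 of 6 tested beside 7.94% of all, and the sum had a median of 8717 CPM in Control, 6845 in S6h, 2141 in S24h and 2623 in S72h. Of 5 skeletal muscle markers tested, of which miR-1a-3p was the most abundant, and of 7 leukocyte markers, of which miR-223-3p was, none was called in S24h against Control. The 1 pancreas marker tested, miR-375-3p, was not called there either, and miR-216a-5p was at 0 in 23 of 24 libraries. The median log2 fold change in S24h against Control was -1.80 for the tested liver markers, -1.24 for erythroid, -1.23 for stromal, -1.53 for epithelial, -0.78 for muscle and 0.28 for leukocyte markers, and -0.06 for the group of miR-130 and miR-301, beside -0.21 for all tested miRNAs. The part of these cell types in the level of miR-148a-3p was not tested.

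In S72h against Control, miR-16-5p (-1.01) and miR-143-3p (-2.38) were the called marker miRNAs, 1 of 6 in the erythroid and 1 of 6 in the stromal list, beside 3.57% of all tested. miR-143-3p was called under 9 of 10 alternative settings, the exception being a model of the 2 groups alone (adjusted p = 0.0941), and in all 24 fits that left out 1 library. miR-16-5p was called under 4 of 10 settings and in 7 of 24 such fits, with adjusted p up to 0.155. From S6h to S24h the lower ones were miR-451a, miR-16-5p, miR-375-3p, miR-215-5p, miR-200a-3p, miR-1a-3p, miR-133a-3p, miR-499-5p, miR-223-3p, miR-143-3p, miR-145a-3p and miR-199a-3p, and the higher ones were miR-150-5p and miR-145a-5p, beside 20.2% called among all tested. These were 2 of 6 erythroid, 1 of 1 pancreas, 2 of 6 epithelial, 3 of 5 muscle, 2 of 7 leukocyte, 4 of 6 stromal and 0 of 3 liver markers tested. The muscle sum had a median of 53278 CPM in Control, 117926 in S6h, 33229.8 in S24h and 27754 in S72h, and no muscle marker was called in S6h against Control. In S72h this sum ran from 6442 to 237383 CPM, and the median log2 fold change of the tested muscle markers against Control was 0.36. The log2 fold change from S6h to S24h was -1.27 for the erythroid miR-451a, -2.80 for the muscle miRNA miR-1a-3p and 1.39 for the lymphocyte miRNA miR-150-5p. Of these calls, miR-451a was made under 5 of 10 alternative settings and in 18 of 24 fits that left out 1 library, miR-200a-3p under 7 and in 15, and miR-150-5p was lost without S24h replicate 6 (adjusted p = 0.0569). In S72h against S24h no listed miRNA was called.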

How the data were processed

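The deposited values are whole-number counts per mature miRNA, not normalized, for 24 libraries. Per the methods of the study, the authors used cutadapt for adapters, Bowtie for alignment and featureCounts with miRBase for counting reads as long as a mature miRNA, and the labels name mm10 and SAMtools.

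Counts were analysed in R 4.3.3 with edgeR 4.0.16 (TMM scaling, quasi-likelihood test, 1 model of 4 groups, 20 residual degrees of freedom), with DESeq2 1.42.0 as an alternative, and in Python 3.11.15 with scipy 1.17.1. Tested miRNAs had at least 10 CPM in at least 12 libraries. Calls needed a 1.5-fold change in either direction and an adjusted p (Benjamini-Hochberg) below 0.05. Ratios used a pseudocount of 1 and exact permutation tests, with a smallest p of 0.00216 when no block was used. Of 1966 miRNAs, 667 had a count. No 2 libraries were identical.

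The members and lists (miR-130 and miR-301, DNA methyltransferase and cholesterol regulators, and liver, pancreas, epithelial, erythroid, muscle, leukocyte and stromal markers) were chosen with earlier results of these data known. Named were the members, miRNAs sharing their seed, the 5 most like miR-148a-3p and miR-152-3p by Spearman's rho, and the called and most abundant miRNAs of each list. miR-29b-3p, miR-216a-5p and miR-152-5p fall outside this rule and were chosen after their values were seen. Alternatives changed the test, scaling, filter, libraries, robust fit, replicate block and pseudocount.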

Additional observations from a re-analysis of the deposited data

Results flagged for a closer look

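In Control, the log2 CPM of miR-148a-3p in replicate 2 stood apart from the other 5 libraries, with a gap of 0.835 of the group's range, which is above Dixon's 95% critical value for 6 samples. This library had the lowest total, 63956 counts, and 165 counts of miR-148a-3p. It was the only such library among 27 groups of values examined, and chance marks about 1 in 20 groups. Its cause was not tested.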

How the results depend on the processing

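Of 510 refits of the 15 member fold changes, 486 kept direction and side of the threshold, as did 208 of 225 refits of the 15 ratio differences. Most of these differences were not called to begin with, so the totals say little about the 1 called fold change. miR-148a-3p in S24h against Control was called under all 10 settings that kept every library (-1.66 to -1.38, adjusted p 0.00252 to 0.0427). It ranged from -1.92 to -1.45 when 1 library was left out, and its call was lost in 4 of 24 such edgeR fits (adjusted p up to 0.0585). From S6h to S24h its fold change (-1.08) passed in a model of the 2 groups alone. The ratio of miR-148a-3p to miR-148b-3p from S6h to S24h passed with a pseudocount of 5 (-1.49), and ranged from -1.69 to -1.28 without 1 library.

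From S24h to S72h, miR-152-3p (0.05) changed sign with DESeq2 (-0.13), RLE (-0.13), upper quartile (-0.19), column totals (-0.30), a mean of at least 100 CPM (-0.014) and the 2 groups alone (-0.018), and the miR-148b-3p to miR-152-3p ratio (-0.07) did with a pseudocount of 5 (0.10). The causes were not tested. Leaving out 1 library changed the sign of further differences, none of them called. For fold changes the ranges were -0.0039 to 0.34 for miR-148b-3p from S6h to S24h, -0.46 to 0.029 for it in S72h against Control, -0.29 to 0.30 for miR-152-3p in S6h against Control and -0.20 to 0.50 for it from S24h to S72h. For ratios from S24h to S72h they were -0.25 to 0.55 (miR-148a-3p to miR-152-3p), -0.30 to 0.65 (miR-148a-3p to miR-148b-3p) and -0.44 to 0.56 (miR-148b-3p to miR-152-3p). For the last they were -0.24 to 0.74 in S24h and -0.049 to 0.67 in S72h against Control. The adjusted p of miR-148a-5p without a filter ranged from 0.0335 to 0.106 without 1 library and was 0.0453 with DESeq2.

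Libraries with the same replicate number did not deviate together (correlations from -0.15 to 0.15), so no pairing by number was seen in the counts. Such correlations cannot show whether the mice were handled in pairs. With the replicate number as a block, miR-148a-3p in S24h against Control was at -1.66 (adjusted p = 0.0326), miR-152-3p from S24h to S72h was at -0.013, and miR-148a-5p without a filter had an adjusted p of 0.166. The block gave 32 calls in S24h against Control beside 30 without it, and 1 in S72h against Control beside 9.

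Calls in S24h against Control numbered 50 with DESeq2. In S72h against Control, beside 9, there were 19 with DESeq2 and with upper quartile scaling, 18 at a mean of at least 100 CPM, 3 with scaling without erythroid miRNAs, 2 with column totals and 0 in a model of the 2 groups. From S24h to S72h, beside 1, there were 4 with DESeq2, 10 without a filter and 0 with the 2 groups alone, and in S6h against Control 2 without a filter. The counts of miR-152-3p ranged from 1 to 194 and its coefficient of variation between libraries from 52.6% in S6h to 108% in S24h. miR-148a-5p had counts in 10 libraries. Near-identical sequences and a single control set limit the comparisons. The called miRNAs named from lists or likeness were refitted under the same settings, added after seeing the data.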
